A study of Mus musculus with 11 samples.

Results

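The genes described here are 10 markers of mature interneuron subtypes: Sst, Npy, Vip and Cck, which encode neuropeptides; Pvalb, Calb1 and Calb2, which encode calcium-binding proteins; and Reln, Lamp5 and Nos1. They are a named list whose rule uses no value measured in these libraries, but it was chosen with earlier results of these data known. All 10 were found among the 21755 protein-coding genes of chromosomes 1 to 19 and X. For each gene, the percentage of bases under H3K27me3 peaks was measured over the 4000 bases that extend 2 kb either side of its 5′ end (the window) and over the gene body, and both were compared over 4 regions of the embryonic mouse forebrain.

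H3K27me3, the trimethylation of lysine 27 on histone H3, is deposited by Polycomb repressive complex 2 and is typically found over the promoters of developmental genes that are silent in a cell or kept ready for later use. Interneurons are inhibitory neurons that arise in the ventral forebrain and migrate to the cortex, where they mature into subtypes distinguished by the peptides and proteins they make. The medial ganglionic eminence gives rise to most Sst and Pvalb cells, and the caudal ganglionic eminence to most Vip, Lamp5 and Calb2 cells. Most of the genes that mark these subtypes in the adult are strongly expressed only after the cells have left their birthplace.

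H3K27me3 was profiled by CUT&Tag, in which an antibody-tethered transposase tags the DNA around modified nucleosomes, in nuclei of wild-type C57BL/6J embryos. The dissected regions were the medial (MGE), caudal (CGE) and lateral (LGE) ganglionic eminences and the cortex (CTX), with 2 samples for MGE and 3 for each of the others, 11 in all. The dissection protocol names embryos of E12.5 and E14.5, the methods of the study place CUT&Tag at E12.5, and no label gives an age for a single sample. The methods describe a pair of biological replicates for every region, MGE included, from tissue pooled over several embryos. Outside MGE, 2 samples of each region share a replicate number and thus appear to belong to the same replicate. The protocol also speaks of nuclei pooled in equal amounts, while each sample is labelled with a single region. Every region holds progenitors, newborn neurons and other cells, so that a peak carried by all cells of a region and a peak carried by part of them cannot be told apart.

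Peaks were called by the authors on the pooled samples of each region, which leaves 1 list per region, no replicate error and no test of a difference between lists. The lists held between 15384 peaks (MGE) and 19196 peaks (CGE) and covered 24.5 to 32.9 Mb. MGE, the list with the fewest peaks, is also the region with the fewest reads in all by the methods of the study. Among genes that mark the dissected tissues, Lhx6 (MGE) had its lowest window coverage in MGE, at 69.2% against 100.0% in the other 3 lists, and Emx1 (cortex) had its lowest in CTX, at 87.1% against 98.9% to 100.0%. Lhx2 was lowest in CTX (29.8%) but close to it in LGE (31.4%). Dlx2, a gene of all the eminences, was covered at 16.4% in MGE but at 41.4% to 44.8% in the other 3, CTX included. Nr2f2 (CGE) was as low in LGE and CTX (27.4% and 27.6%) as in CGE (27.3%), and Nkx2-1, which defines the MGE, was covered at 100.0% in all 4 lists. These checks depended on the part of the gene measured. Over the gene body, Nr2f2 was lowest in CGE (20.4% against 31.7% to 34.4%), and at its transcript start with the highest coverage Lhx6 was covered entirely in MGE and least in LGE (81.8%).

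Most of the subtype markers carried H3K27me3 in all 4 regions, including the regions from which their cells arise. At least 1 base of the window was covered in 8 of the 10 genes in every list, and the same 8 genes were covered in each. Of all protein-coding genes, 32.5% (CTX), 30.3% (CGE), 30.2% (LGE) and 29.1% (MGE) had a covered base in the list named, and 23.4% had one in all 4. At least 50% of the window was covered in 4 genes in MGE (9.76% of all genes) and in 5 genes in CGE (12.3%), LGE (10.2%) and CTX (10.9%). The 4 genes that passed this level in all 4 lists, against 7.54% of all genes, were Sst, Npy, Cck and Reln, and Calb2 joined them outside MGE. Pvalb, Calb1 and Lamp5 were covered below this level in every list, and Vip and Nos1 had no covered base in the window of any list.

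**Figure D1:**
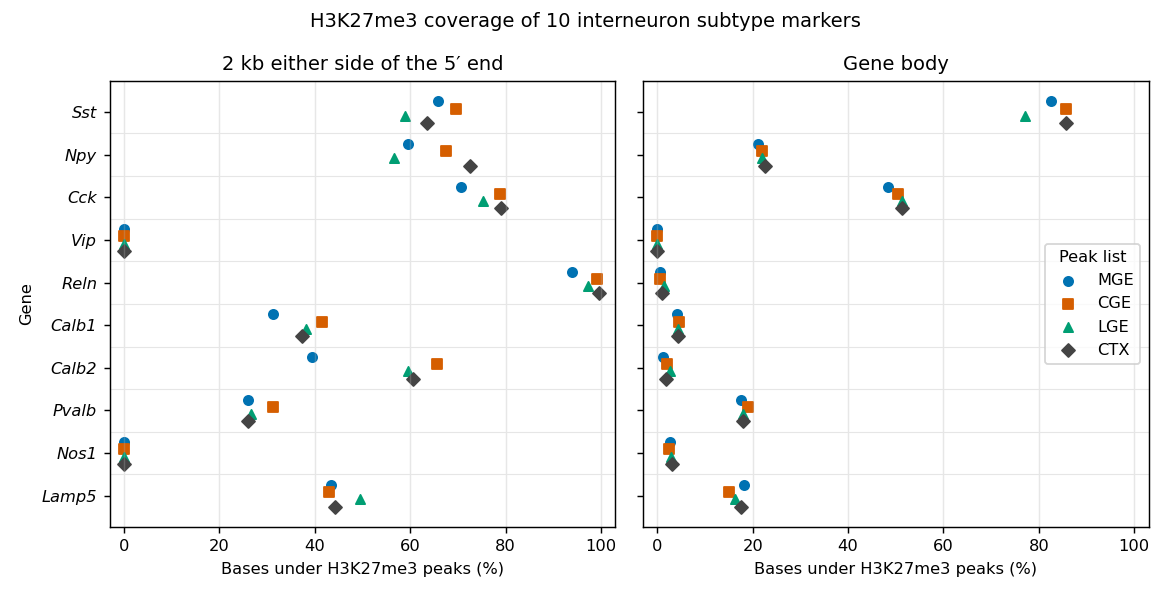
H3K27me3 coverage of the 10 markers in the 4 peak lists, as the percentage of bases under peaks over the window around the 5′ end (left) and over the gene body (right), with 1 point per gene and list. The windows of a gene differ by at most 15.8 points between lists for all genes but Calb2, which is covered at 39.4% in MGE and at 59.6% to 65.7% in the other lists.

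The neuropeptide genes split into 3 genes with a broad peak at the start and Vip with none. Sst, which encodes the inhibitory peptide somatostatin, lies at chr16:23889573-23890958 (minus strand, GRCm38). Peaks covered its window at 69.6% (CGE), 65.9% (MGE), 63.5% (CTX) and 58.9% (LGE). LGE was lowest and CGE highest, 10.7 percentage points apart. A single peak of 2355 to 2784 bases extended in each list from 1288 to 1597 bases upstream of the 5′ end to 1067 to 1187 bases downstream of it, and covered between 77.0% and 85.6% of this short gene. MGE, where most somatostatin interneurons are born, held the second highest window coverage of the 4. The peak's fold enrichment over background, as deposited, was 3.32 to 3.63.

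Npy encodes neuropeptide Y, which marks neurogliaform and some somatostatin cells, and lies at chr6:49822710-49829507 (plus strand). The window coverage was 72.5% (CTX), 67.5% (CGE), 59.6% (MGE) and 56.7% (LGE). CTX and CGE were thus higher than MGE and LGE, and the difference arose on 1 side of the gene start. The downstream edge of the peak lay between 1438 and 1528 bases into the gene in all 4 lists, while its upstream edge moved between 783 (LGE) and 1372 (CTX) bases before it. The −log10 q of this peak, where a higher value means a call less likely to come from background alone, was 145 (CGE), 125 (CTX), 108 (LGE) and 58.9 (MGE). Its fold enrichment did not follow this order, at 4.02 (LGE), 3.98 (MGE), 3.86 (CGE) and 3.80 (CTX). By −log10 q the peak ranked among the strongest of each list, within the top 1.09% (MGE), 0.967% (LGE), 0.594% (CGE) and 0.399% (CTX).

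Cck encodes cholecystokinin, made by a class of basket cells, and lies at chr9:121489824-121495694 (minus strand). Its window was covered at 79.0% (CTX), 78.8% (CGE), 75.3% (LGE) and 70.7% (MGE), and the 2 kb downstream of the 5′ end were covered entirely in all 4. The peak, 3662 to 4176 bases wide, was among the widest of the set and reached over all 6 annotated transcript starts of the gene. It covered between 48.3% and 51.4% of the gene body. By −log10 q it stood within the top 5.45% (CGE), 4.33% (LGE), 2.77% (CTX) and 1.53% (MGE) of peaks.

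Vip encodes vasoactive intestinal peptide, the defining product of a CGE-derived class of cells that inhibit other interneurons, and lies at chr10:5639218-5647617 (plus strand). It had no covered base in window or gene body in any list. The nearest peak was 88342 (LGE), 88304 (MGE), 88288 (CGE) and 88014 (CTX) bases upstream. Within 100 kb either side of the Vip 5′ end this was the only peak in each list, and Vip was the only gene of the 10 with no covered base in either window or gene body.

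The sequence just before the gene start is shown for the genes at the ends of this range, with each CG dinucleotide in capitals, since CpG-rich starts are the usual sites of H3K27me3. For Sst it is the 250 bases before the RefSeq start (GRCm38.p6, chr16:23890845-23891094, minus strand), which lies 114 bases downstream of the GENCODE 5′ end used above. The capital run TGACGTCA in it matches the cAMP response element, the motif of the transcription factor CREB known from the somatostatin promoter. For the others it is the 200 bases upstream of the GENCODE 5′ end in GRCm38: Npy at chr6:49822510-49822709 (plus strand), Reln at chr5:22344703-22344902 (minus strand) and Vip at chr10:5639018-5639217 (plus strand). All are written 5′ to 3′.
Sst: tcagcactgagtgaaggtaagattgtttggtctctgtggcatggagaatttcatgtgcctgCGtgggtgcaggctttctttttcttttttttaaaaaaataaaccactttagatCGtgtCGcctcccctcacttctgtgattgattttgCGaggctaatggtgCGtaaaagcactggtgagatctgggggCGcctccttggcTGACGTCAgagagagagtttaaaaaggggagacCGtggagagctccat
Npy: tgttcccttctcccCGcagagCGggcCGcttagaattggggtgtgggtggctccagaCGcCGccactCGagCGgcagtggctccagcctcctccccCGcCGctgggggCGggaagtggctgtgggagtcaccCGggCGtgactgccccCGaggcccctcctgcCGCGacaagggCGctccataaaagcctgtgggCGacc
Reln: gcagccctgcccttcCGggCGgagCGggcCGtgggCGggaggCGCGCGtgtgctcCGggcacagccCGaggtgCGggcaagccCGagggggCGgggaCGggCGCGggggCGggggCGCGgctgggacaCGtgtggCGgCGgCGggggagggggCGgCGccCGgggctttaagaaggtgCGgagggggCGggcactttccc
Vip: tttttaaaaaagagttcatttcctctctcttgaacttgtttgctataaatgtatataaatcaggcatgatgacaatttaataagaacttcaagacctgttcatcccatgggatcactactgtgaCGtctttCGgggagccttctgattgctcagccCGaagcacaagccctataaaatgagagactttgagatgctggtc

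Reln and Npy held 28 and 17 CG dinucleotides in these 200 bases and Vip held 3, while the 250 bases of Sst held 8. Over the 1000 bases centred on the 5′ end, the ratio of observed to expected CpG was 1.01 for Reln, 0.628 for Npy, 0.578 for Sst and 0.287 for Vip. The median over all genes was 0.558, over the 5099 genes with a covered base in all 4 lists 0.657, and over the 13248 genes with no covered base in any list 0.326. RefSeq promoters, which run from 250 bases before to 50 bases after the start, were given for 8 of the 10 markers. TGACGTCA, which reads the same on both strands, was found in 588 of 32851 RefSeq promoters (1.79%) and, among those of the 8 markers, in Sst alone, with its first base 48 bases before the start. TATAAA, searched on both strands, was found in 13.6% of RefSeq promoters and, among those of the 8 markers, in Vip alone, with first bases 157, 147 and 30 bases before the start. The 200 bases before every GENCODE protein-coding start of all 10 markers were searched as well. There TGACGTCA was found before the adjoining Nos1 starts at positions 86082 and 86087 (1.87% of all genes held it before the 5′ end), with first bases 20 and 9 bases before the former, and TATAAA before the starts of Vip and of Calb2 (9.27% of all genes), in Calb2 with its first base 32 bases before the 5′ end. These are matches of letters and were not measured as binding sites.

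The calcium-binding protein genes had narrower peaks or peaks to 1 side of the 5′ end. Calb1 encodes calbindin and lies at chr4:15881264-15908064 (plus strand). Peaks covered its window at 41.5% (CGE), 38.2% (LGE), 37.3% (CTX) and 31.2% (MGE), in the form of a compact peak of 1248 to 1661 bases that began 164 to 471 bases before the 5′ end. MGE was lowest here too, 10.3 points below CGE. This narrow peak had the highest fold enrichment among the strongest peaks of the 10 genes, at 6.58 (CTX), 6.14 (LGE), 5.80 (CGE) and 5.63 (MGE).

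Calb2 encodes calretinin, which is found in many CGE-derived interneurons, and lies at chr8:110137502-110168210 (minus strand). The window coverage was 65.7% (CGE), 60.5% (CTX), 59.6% (LGE) and 39.4% (MGE). It was the only marker whose coverage differed by 20 points or more between any pair of lists, a change found in 12.2% of all genes and in 31.3% of the 8507 genes with a covered base in any list. Among the 8 markers with a covered base, Calb2 was thus 1 of 8. The lower value was in MGE each time, by 26.3 points against CGE (4.51% of all genes were lower in MGE by 20 points or more), by 20.2 against LGE (2.56%) and by 21.2 against CTX (4.25%).

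The difference at Calb2 lay mostly upstream of the gene. The upstream edge of the peak was 1205 bases before the 5′ end in MGE and 2054 (LGE), 2053 (CGE) and 1882 (CTX) bases before it elsewhere. Coverage of the upstream 2 kb was 100.0% (CGE), 100.0% (LGE), 94.1% (CTX) and 60.2% (MGE), and that of the downstream 2 kb only 18.5% to 31.4%. With 1 kb either side, the differences from MGE shrank to 12.8 (CGE), 0.700 (LGE) and 8.50 (CTX) points and with 5 kb either side to between 8.47 and 11.1, and no pair differed by 20 points. The MGE peak was the shortest, at 1575 bases against 2422 to 2680, but its fold enrichment of 4.34 was above the 3.44 to 3.87 of the others, and its rank by −log10 q (top 21.6%) was close to those in CGE and CTX (22.5% and 21.9%) and above that in LGE (39.5%). The part played by the sequencing depth in the position of this edge was not tested. The 200 bases before the Calb2 5′ end (chr8:110168211-110168410, minus strand), covered in all 4 lists, held 23 CG dinucleotides, in capitals:
Calb2: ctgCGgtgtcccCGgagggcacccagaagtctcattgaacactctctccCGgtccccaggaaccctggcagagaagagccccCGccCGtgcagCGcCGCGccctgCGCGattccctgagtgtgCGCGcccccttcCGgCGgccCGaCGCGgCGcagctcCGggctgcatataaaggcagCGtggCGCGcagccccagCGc

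Among the genes whose pattern over the 4 lists was most like that of Calb2, by Euclidean distance over the 4 window coverages, were Pip5k1b (3.68 points) and Tspan17 (5.26). The window of Pip5k1b was covered at 62.9% (CTX), 62.8% (CGE), 59.8% (LGE) and 39.3% (MGE), and that of Tspan17 was also lowest in MGE, at 40.6% against 57.2% to 62.6%.

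Pvalb encodes parvalbumin, the calcium buffer of fast-spiking basket and chandelier cells, and lies at chr15:78191114-78206400 (minus strand). Its window was covered at 31.2% (CGE), 26.6% (LGE), 26.0% (MGE) and 26.0% (CTX), and the 2 kb upstream were uncovered in all 4 lists. The peak lay wholly inside the gene, from 752 to 960 bases to 3633 to 3711 bases downstream of the 5′ end, over the start of a second protein-coding transcript at position 2163. Around this internal start, coverage of 2 kb either side was 72.6% (CGE), 68.8% (CTX), 68.4% (LGE) and 66.8% (MGE). MGE, the source of parvalbumin cells, and CTX had equal coverage at the outer start. The peak ranked within the top 12.5% (LGE), 8.47% (MGE), 7.71% (CTX) and 6.78% (CGE).

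**Figure D2:**
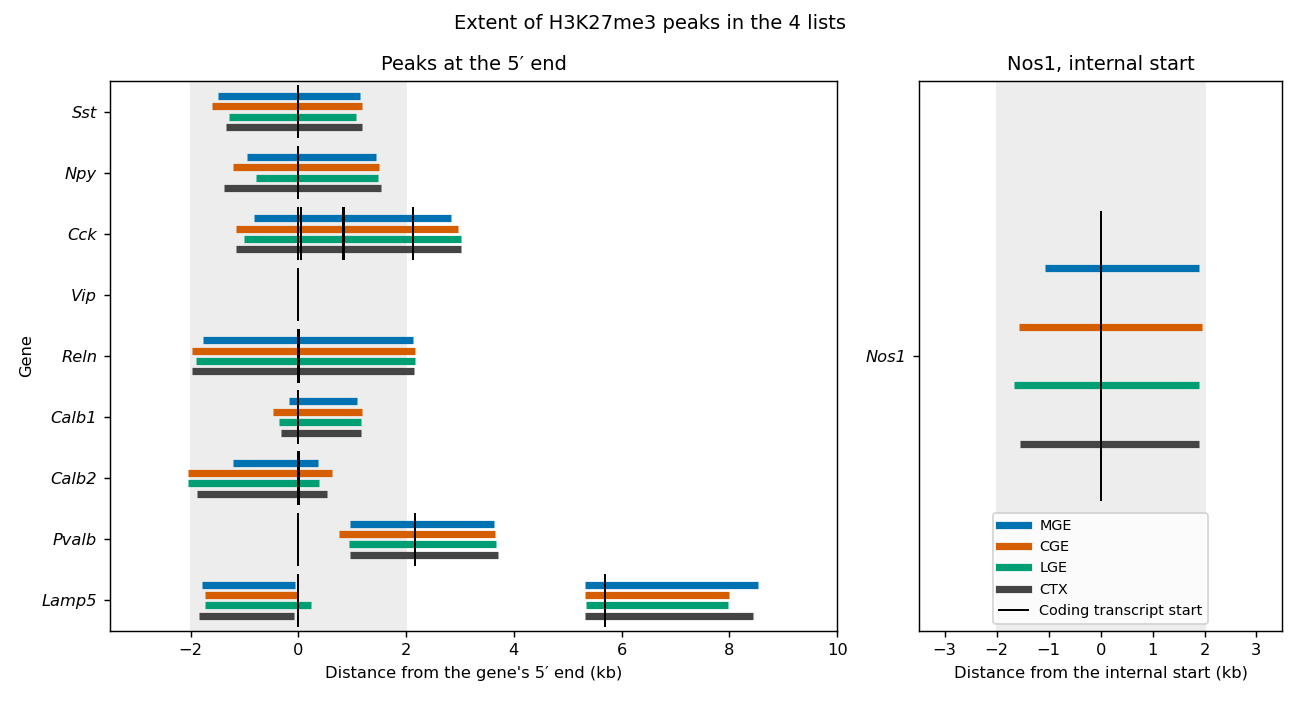
Extent of each H3K27me3 peak in the 4 lists (coloured bars) by distance in kb from the gene's 5′ end, or for Nos1 from its internal start, with vertical black lines at the starts of protein-coding transcripts and the window of 2 kb either side in grey. Peaks of Pvalb and Nos1 sit on an internal start, Lamp5 has a peak before its 5′ end and another on an internal start, Calb2 reaches 1205 bases upstream in MGE and 1882 to 2054 in the other lists, and Vip has no bar.

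Reln encodes reelin, a secreted glycoprotein that guides the layering of the embryonic cortex and is kept by a class of adult interneurons, and lies at chr5:21884454-22344702 (minus strand), 460249 bases long. Its window had the highest coverage of the 10 genes, at 99.5% (CTX), 99.2% (CGE), 97.3% (LGE) and 94.0% (MGE). The peak was 3886 to 4128 bases wide and its edges hardly moved between lists, with a downstream edge 2125 to 2158 bases into the gene and an upstream edge 1761 to 1980 bases before it. Width and strength did not go together: the peak was within the top 3.98% to 5.22% of its list by width but at 17.4% to 25.0% by −log10 q, with a fold enrichment of only 2.36 to 2.69. Further into the gene, LGE and CTX each had weak peaks that began 59926 to 63531 bases and 261452 to 261706 bases downstream of the 5′ end. LGE had another beginning 368169 bases downstream, CGE had 1 beginning 315054 bases downstream, and MGE had none. The CTX peak that began 63108 bases downstream also overlapped a processed pseudogene, Gm16113. None of these inner peaks ranked higher than the top 34.5% of its list by −log10 q, and the gene body as a whole was covered at only 0.462% to 1.33%.

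Lamp5 encodes a membrane protein of the lysosome-associated family that marks neurogliaform cells, and lies at chr2:136052239-136069917 (plus strand). Peaks covered its window at 49.4% (LGE), 44.2% (CTX), 43.4% (MGE) and 43.0% (CGE), almost entirely upstream, in a peak that ended between 79 bases before and 237 bases after the 5′ end. This outer peak was weak, with a −log10 q of 12.4 (CGE), 7.47 (MGE), 7.08 (CTX) and 5.27 (LGE). A far stronger peak began 5329 bases downstream (5331 in LGE), over an internal protein-coding start at position 5688, and its upstream edge was thus the same to within 2 bases. Its −log10 q was 139 (CGE), 109 (CTX), 93.4 (LGE) and 76.6 (MGE), while its fold enrichment was 4.04 (MGE), 3.85 (LGE), 3.72 (CTX) and 3.71 (CGE). By −log10 q it was among the strongest peaks of each list, at rank 39 of 15384 (MGE), 124 of 18785 (CTX), 143 of 19196 (CGE) and 275 of 16851 (LGE). Coverage around the internal start was 59.0% in MGE, CGE and CTX and 58.9% in LGE. The 2 kb after this start ended before the downstream edge of the peak, which lay 8524 (MGE), 8444 (CTX), 7989 (CGE) and 7979 (LGE) bases downstream of the 5′ end. Around the noncoding start at position 7192, which had the highest coverage, the values were 79.9% (MGE), 77.9% (CTX), 66.5% (CGE) and 66.2% (LGE).

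Nos1 encodes the neuronal nitric oxide synthase, present in neurogliaform cells and in long-range projecting somatostatin cells, and lies at chr5:117781032-117958840 (plus strand). No base of its window was covered. Its main peak covered the internal start of another protein-coding transcript, 60818 bases downstream of the 5′ end, and around this start coverage was 89.0% (LGE), 88.4% (CGE), 86.2% (CTX) and 74.3% (MGE). MGE was lower than the other 3, since its peak began at 59746 and theirs between 59150 and 59272. The −log10 q was 97.3 (CGE), 89.5 (CTX), 65.9 (LGE) and 46.9 (MGE), within the top 1.53% to 4.25% of peaks. The fold enrichment had another order, at 3.27 (MGE), 3.26 (CTX), 3.17 (LGE) and 3.00 (CGE). The 2 protein-coding starts at positions 86082 and 86087 were uncovered, save for 0.0500% in CTX. A small peak that began 83465 to 83507 bases downstream was called in CGE, LGE and CTX and not in MGE, with a −log10 q of 2.25, 1.57 and 5.45, and another that began 118520 to 118949 bases downstream was called in all 4 (2.02 to 2.77).

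**Figure D3:**
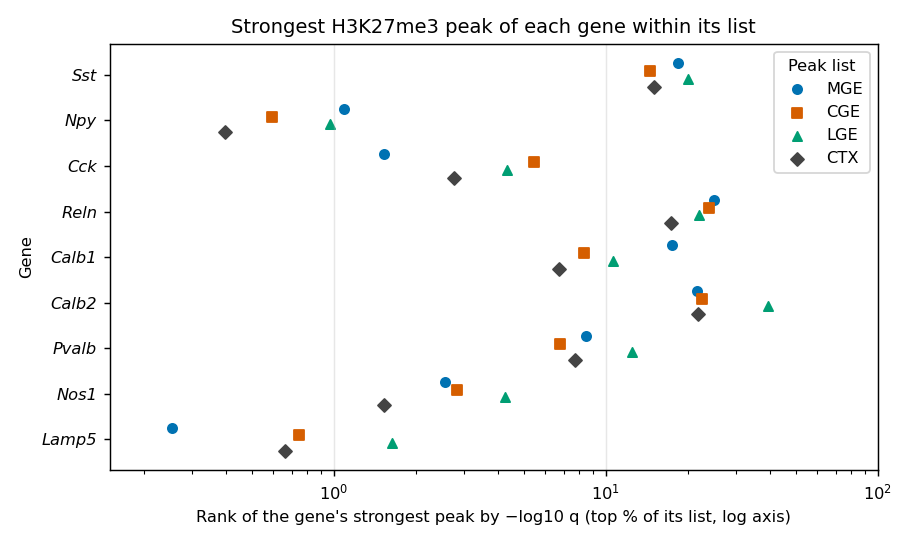
Rank of the strongest H3K27me3 peak in window or gene body of each marker, as the top percentage of its list by −log10 q (log axis, stronger peaks to the left), with 1 point per gene and list. Npy and Lamp5 lie between 0.254% and 1.63% in all 4 lists, whereas Sst, Reln and Calb2 lie between 14.6% and 39.5%.

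With starts other than the outermost taken into account, H3K27me3 touched 9 of the 10 markers. At least 1 base within 2 kb of some annotated transcript start was covered in all 4 lists in 9 genes (25.5% of all genes), and the gene body was touched in all 4 lists in the same 9 (26.0%). At the start with the highest coverage, at least 50% was covered in all 4 lists in 7 genes (9.33% of all genes), namely Sst, Npy, Cck, Reln, Pvalb, Lamp5 and Nos1. The sequences before the outer and internal starts are shown for the 3 genes with an internal peak, as 200 bases of GRCm38 with CG dinucleotides in capitals. They are at chr15:78206401-78206600 and chr15:78204238-78204437 for Pvalb (minus strand), at chr5:117780832-117781031 and chr5:117841650-117841849 for Nos1 and at chr2:136052039-136052238 and chr2:136057727-136057926 for Lamp5 (both plus strand).
Pvalb outer start: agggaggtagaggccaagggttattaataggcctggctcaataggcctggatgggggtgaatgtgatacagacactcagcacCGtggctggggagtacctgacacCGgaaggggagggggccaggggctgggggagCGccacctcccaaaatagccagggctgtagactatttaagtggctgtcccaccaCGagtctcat
Pvalb internal start: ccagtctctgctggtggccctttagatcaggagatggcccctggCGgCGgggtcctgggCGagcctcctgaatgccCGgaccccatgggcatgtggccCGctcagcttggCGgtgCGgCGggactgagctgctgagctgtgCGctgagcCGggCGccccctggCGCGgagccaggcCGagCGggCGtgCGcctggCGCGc
Nos1 outer start: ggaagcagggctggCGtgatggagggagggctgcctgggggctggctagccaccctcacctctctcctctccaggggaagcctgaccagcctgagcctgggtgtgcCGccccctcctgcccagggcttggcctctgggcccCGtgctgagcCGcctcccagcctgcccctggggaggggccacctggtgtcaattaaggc
Nos1 internal start: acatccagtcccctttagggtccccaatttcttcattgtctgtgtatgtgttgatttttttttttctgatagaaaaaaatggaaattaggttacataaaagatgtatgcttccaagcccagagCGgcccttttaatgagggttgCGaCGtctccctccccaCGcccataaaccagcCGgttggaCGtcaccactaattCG
Lamp5 outer start: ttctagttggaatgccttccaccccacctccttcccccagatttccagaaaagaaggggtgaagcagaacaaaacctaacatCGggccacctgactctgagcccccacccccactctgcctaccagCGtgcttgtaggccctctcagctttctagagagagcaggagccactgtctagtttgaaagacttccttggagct
Lamp5 internal start: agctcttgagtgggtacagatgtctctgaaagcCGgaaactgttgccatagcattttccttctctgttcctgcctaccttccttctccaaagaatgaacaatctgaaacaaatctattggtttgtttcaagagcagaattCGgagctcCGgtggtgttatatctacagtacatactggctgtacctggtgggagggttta

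In each of these genes the internal start under the peak had more CpG than the outer start. Over 1000 bases, the ratio of observed to expected CpG was 0.157 at the outer and 0.515 at the internal start of Pvalb, 0.225 and 0.593 in Nos1, and 0.157 and 0.395 in Lamp5. The difference was also visible in the Pvalb sequences above, with 4 CG dinucleotides before the outer and 19 before the internal start, and less so for Nos1 (4 and 7) and Lamp5 (2 and 3). Cck had a ratio of 0.260 at the 5′ end and 0.650 at the start 854 bases downstream, where coverage reached 100.0% (CGE), 100.0% (CTX), 96.7% (LGE) and 91.5% (MGE). Other starts did not follow this order. The Cck start 2130 bases downstream had a ratio of 0.334 but coverage of 67.6% to 72.2%, below that of the 5′ end, and the Nos1 starts at positions 86082 and 86087 had ratios of 0.442 and 0.456 and almost no coverage. Calb1 had a high ratio of 0.701 and coverage of at most 41.5%. Within the bases that the strongest peak of a gene shared over all 4 lists, the ratio was lowest in Pvalb (0.287) and Sst (0.380) and highest in Calb1 (0.636) and Reln (0.736). The median over all peaks was 0.336 to 0.383 by list.

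**Figure D4:**
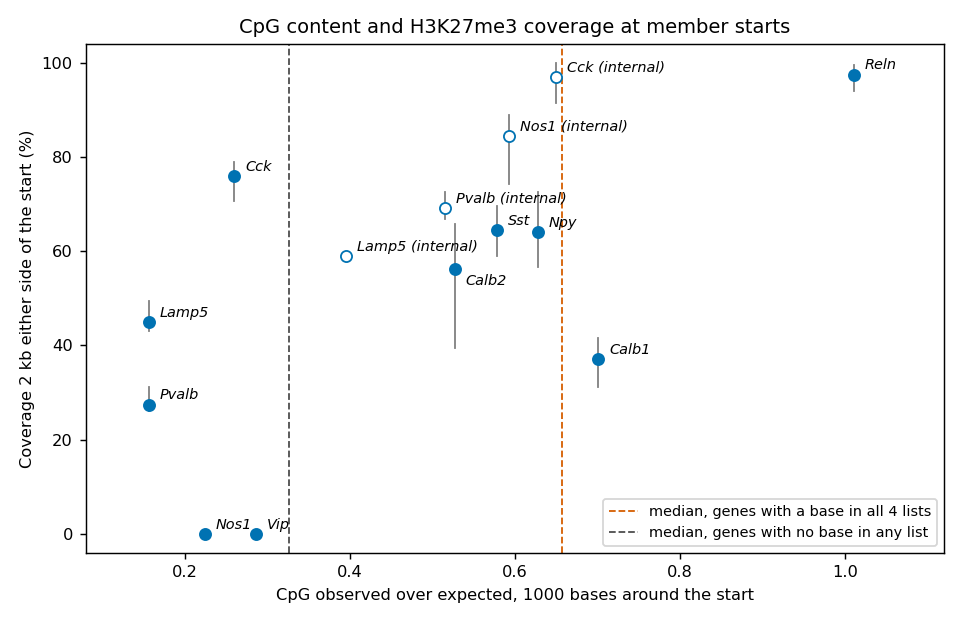
Ratio of observed to expected CpG in the 1000 bases around each start against H3K27me3 coverage of 2 kb either side, with filled circles for the 5′ ends of the 10 genes, open circles for the internal protein-coding start with the highest coverage, circles at the mean of the 4 lists and bars from the lowest to the highest list. Dashed lines mark the median ratio of genes with a covered base in all 4 lists (0.657) and of genes with none in any list (0.326). The open circles of Pvalb, Nos1, Lamp5 and Cck, which show the internal start with the highest coverage, lie to the right of and above the outer starts.

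Differences between regions were small over the set as a whole. The median window coverage of the 10 genes was 54.3% (CGE), 53.0% (LGE), 52.4% (CTX) and 41.4% (MGE), where the median of all genes was 0 in each list. Of the 8 markers with a covered window, 4 were highest in CGE (Sst, Pvalb, Calb1 and Calb2), 3 in CTX (Npy, Cck and Reln) and Lamp5 in LGE. MGE was the lowest list for 5 of them, Pvalb sharing this place with CTX, and was the highest for none. From MGE to CGE, 7 markers had higher coverage and Lamp5 lower, with a median difference of 6.52 points. The MGE list was also lower over the genome, since 68.2% of all genes that differed between these lists had higher coverage in CGE. From CGE to LGE, 7 markers were lower and Lamp5 higher (median −4.03 points), while 32.6% of all genes that differed were higher in LGE. CGE and CTX divided the markers evenly, with 4 higher in each. Over the gene body the medians of the 10 genes had another order, at 11.0% (CTX), 10.8% (MGE), 10.3% (LGE) and 9.74% (CGE). Gene by gene, MGE had the lowest gene body coverage for Pvalb, Npy, Cck, Calb1, Calb2 and Reln and the highest for Lamp5.

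The covered bases themselves were largely the same in the 4 lists. Of the window bases under a peak in any list, the share under a peak in all 4 was 94.5% in Reln, 89.5% in Cck, 84.6% in Sst, 83.3% in Pvalb, 79.6% in Lamp5, 76.6% in Npy, 75.1% in Calb1 and 60.0% in Calb2. The median of these 8 genes was 81.4%, beside 70.2% over the 5099 genes with a covered base in all 4 lists. Those 5099 genes were not matched to the markers for window coverage, so the medians are not directly comparable.

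Other genes of the interneuron lineages were set beside the markers, by the coverage of their windows. Of 22 other subtype markers, 14 (63.6%) had a covered base in all 4 lists and 4 had none in any, where 23.4% of all genes and 8 of the 10 markers above had a covered base in all 4. Penk, Cxcl14 and Tac1, which encode the enkephalin precursor, a chemokine and the substance P precursor, had the highest coverage in their lowest list, and stood at 69.3% to 76.3%. In 8 of the 22, coverage differed by 20 points or more, beside 12.2% of all genes and 31.3% of those with a covered base in any list. The largest differences were in Chrna2 (a nicotinic receptor subunit, 38.4% in CTX and 0 elsewhere), Cnr1 (the cannabinoid receptor, 100.0% in CTX and 65.5% to 71.8% elsewhere), Id2 (34.0% in CTX and at most 1.90% elsewhere) and Htr3a. Htr3a, the serotonin receptor subunit that marks CGE-derived interneurons, was covered at 20.7% in MGE and 33.8% in CGE and had no covered base in LGE and CTX.

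Of 23 transcription factors of these lineages, 18 were covered in all 4 lists (23.4% of all genes) and 10 differed by 20 points or more. Such a difference was found in 12.2% of all genes and in 31.3% of those with a covered base in any list. Etv1 was covered at 17.8% in MGE and 58.7% in CGE and not at all in LGE and CTX. Sp8, which acts in CGE-derived cells, was covered at 47.6% or more in each eminence and uncovered in the window of CTX, where its gene body was still covered at 30.9%. Dlx1 was covered at 43.4% in LGE, 67.5% in MGE and 100.0% in CGE and CTX, and Lhx8 at 66.0% to 76.7% in the eminences and 100.0% in CTX. At the transcript start with the highest coverage, however, Lhx8 was covered at 99.3% in CGE, close to CTX, with 81.2% in LGE and 70.4% in MGE. There Dlx1 was covered at 98.2% in MGE and 62.9% in LGE. Sp9 (91.5% to 95.2%) and Sox6 (73.4% to 78.7%) had, with Nkx2-1, the highest coverage in their lowest list.

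The receptors of the markers' products, with the reelin adaptor Dab1, were covered in all 4 lists in 12 of 15 cases (23.4% of all genes). Of the 15, 3 differed by 20 points or more, beside 12.2% of all genes and 31.3% of those with a covered base in any list. Vipr1, a receptor for vasoactive intestinal peptide, was covered at 76.5% to 85.1% while the gene of its ligand had no covered base. Npy5r (68.5% to 74.5%) and Sstr2 (67.5% to 73.9%) were covered along with the genes of their ligands. The 3 that differed were the reelin receptors Vldlr and Lrp8 and the cholecystokinin receptor Cckar. Vldlr was covered at 57.5% (CTX), 41.5% (LGE), 9.93% (CGE) and 9.57% (MGE), and Lrp8 at 24.0% in MGE, 13.3% in LGE and 0 in the windows of CGE and CTX. At its transcript start with the highest coverage, however, Lrp8 was covered at 42.8% (MGE), 35.4% (CTX), 30.4% (CGE) and 20.3% (LGE). Cckar ranged from 0 in CGE to 25.0% in CTX. Of 12 paralogs of the markers, 2 were covered in all 4 lists and 9 in none, close to the shares over all genes, where 23.4% were covered in all 4 and 13248 of 21755 in none. The 2 were Pyy, a relative of Npy (71.2% to 75.5%), and Adcyap1, a relative of Vip (45.9% to 46.2%). Nos2, a relative of Nos1, was likewise uncovered in the window and covered at another start, at 82.2% (CGE), 77.0% (LGE), 76.7% (CTX) and 74.7% (MGE). None of these 12 differed by 20 points.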

How the data were processed

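CUT&Tag reads were aligned to GRCm38 (mm10) by the authors with Bowtie2, duplicates were removed with Picard, samples of a region were merged with SAMtools and broad peaks were called with MACS. The submitters' processing notes also name deepTools; versions of these tools are not given in the sources used here. The deposited lists hold, per peak, a score and a −log10 p-value (both not used), its fold enrichment (a ratio to background) and its q-value as −log10, from MACS. Replicates could not be compared or left out, because the lists were called on merged samples. The lists hold no read counts, so the number of reads behind a single value cannot be given. By the study's methods, depth differed between libraries and was lowest in total for MGE.

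Coverage by peaks was computed from the deposited positions for chromosomes 1 to 19 and X with Python 3.11.15, numpy 2.4.6 and pandas 2.3.3, after the code was tested on simulated data, and plotted with matplotlib 3.10.9. Genes and transcript starts were from GENCODE M21 and sequence from the RefSeq copy of GRCm38. Coordinates count from 1. The members and gene lists were chosen with earlier results of these data known. All 10 members were named; from other lists, up to 4 genes per list with the largest differences of 20 points or more and up to 3 with the highest lowest coverage; and the 3 genes most like a member that differed by 20 points and genes under a peak shared with a member. Of these most alike genes, 1 is not reported here. Alternatives were peaks limited to q-values below 0.001, joining of peaks closer than 3 kb, equal numbers of peaks, equal covered bases, other windows (upstream alone, 1 kb or 5 kb either side), the transcript start with the highest coverage, 50% of the window as the minimum, and differences of 10 or 40 points.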

Additional observations from a re-analysis of the deposited data

How the results depend on the processing

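Under a q-value below 0.001, joined peaks, equal numbers of peaks or equal covered bases, the median coverage of the 10 windows (50.6%), the 8 genes with a peak in all 4 lists, the single gene that differed by 20 points or more (Calb2) and the median gene body coverage (10.5%) did not move. Every peak in these windows had a −log10 q of 5.27 (Lamp5 in LGE) or more, so that dropping weak peaks left all of them in place. None of these settings shortens a peak. The unchanged values therefore say nothing about the effect of depth on peak edges. The windows themselves mattered more. The median was 52.9% over the upstream 2 kb alone, 70.2% with 1 kb either side, 24.2% with 5 kb either side and 66.8% at the transcript start with the highest coverage. The number of genes that differed by 20 points was 2 over the upstream 2 kb (Npy and Calb2), 0 with 1 kb and 0 with 5 kb either side, and it was 4 at a difference of 10 points and 0 at 40. When at least 50% of the window had to be covered, 4 of the 10 markers remained, with 8 of the other subtype markers, 8 of the transcription factors and 1 paralog. The paralogs numbered 1 over the upstream 2 kb and 4 with 5 kb either side. No paired analysis was possible because peaks were called on merged samples and no result comes from a test. With 1 list per region the spread between animals is unknown, and the edge of a peak depends on depth and on the peak caller as well as on the modification, so that differences of a few points between lists have no error to be read against.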

Other observations

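Some markers also had H3K27me3 peaks close to the gene but outside the window and the gene body. Sst had a second peak in all 4 lists, which ended 6281 to 6765 bases upstream of the 5′ end and was weak, with a −log10 q of 2.84 to 6.37. Npy likewise had a weak second peak in all 4 lists that ended 12402 to 14229 bases upstream (−log10 q of 1.51 to 3.81). In contrast, the peak next to Calb2 was of similar strength to the one at its start. It was 459 to 491 bases wide, began 756 to 778 bases past the 3′ end of the gene, and had a −log10 q of 13.5 (CTX) to 23.2 (LGE), beside 6.35 (LGE) to 19.4 (CGE) at the 5′ end. Its fold enrichment of 7.90 in LGE, 6.32 in MGE, 5.94 in CTX and 5.87 in CGE was above that of the 5′ peak in each list. In CGE and CTX, Calb2 had a further small peak about 9 kb upstream that MGE and LGE lacked. Past the 3′ end of Reln, a peak of 349 to 902 bases lay 18571 to 18850 bases away in all 4 lists, with the highest −log10 q in CGE (19.1, against 4.33 to 5.60 in the others). What these flanking peaks lie on was not examined here.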
